A study of Mus musculus with 4 samples.

Results

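The genes described here encode the integrins, selectins and related adhesion molecules with which T cells leave the blood, hold on to other cells and settle in tissue. They were chosen by name, with earlier results of these data known. The 31 genes were read from every probe set that the platform annotation maps to 1 gene only. All 31 had at least 1 such probe set, out of 18193 genes with one, and 76 probe sets covered them. A probe set was taken as measured when its highest value over the arrays reached an intensity of 32.5, the 60th percentile of all values, and 21 of the 31 genes and 9622 genes in all did so. Values under 10.1, the 40th percentile, were set to that floor before any fold was taken.

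Expression was read on Affymetrix Mouse Genome 430 2.0 arrays in 4 populations of CD4+ T cells with 1 array apiece, namely Foxp3+ cells sorted as CD25hi or CD25lo and Foxp3- cells sorted as CD25+ or CD25-. All 4 came from the pooled spleens and lymph nodes of 25 male Foxp3-GFP knock-in mice on a B6/129 F2 background, aged 5 to 8 weeks, so every population carries the knock-in and none has a replicate. Cells bearing CD8, B220, CD11b, NK1.1 or DX5 were depleted with antibodies before the sort, GFP stood for the transcription factor Foxp3, and the RNA went through 2 amplification cycles. With 1 array a group no test could be made: differences are given by size, a fold of 2 or more counts in a comparison of 2 arrays, and the number of arrays limits the precision.

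Array medians lay between 15.03 and 15.6 and the highest intensities between 33664 and 40178. Foxp3 read 1308 and 1117 in the CD25hi and CD25lo Foxp3+ populations, against 16.8 and 17.6 in the CD25+ and CD25- ones without it. The CD25 gene Il2ra read 1562 in CD25hi and 288 in CD25lo Foxp3+ cells, with 283 in the CD25+ Foxp3- array and 22.3 in CD25- Foxp3- cells, so the arrays labelled lo and + had nearly the same level. All 9 CD4 T cell markers with a probe set passed the filter in every array, among them Cd3d with 9007, 9946, 6179 and 9886 in the same order. Their sums were 30454, 34265, 26194 and 36623, lowest in CD25+ Foxp3- cells. Trat1 read 1188, 1082, 537 and 1844, whereas Zap70, at 1453, 1823, 2072 and 1719, was highest in that array. Itgb7, Itga6, Selplg, Icam2 and Pecam1, described below, were also lowest there, and the part of cell content in this was not tested. The markers of NK and CD8 T cells and of red cells were not even across the arrays, and they are given beside the results they move with. In such bulk samples, fewer cells of a type and less RNA per cell cannot be told apart.

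Integrins are pairs of 1 alpha and 1 beta chain, and the pairing decides the ligand. On T cells LFA-1 (Itgal with Itgb2) binds the ICAM proteins, alpha 4 pairs with beta 1 to bind VCAM-1 and with beta 7 to bind the gut addressin MAdCAM-1, and alpha E with beta 7 forms CD103, which binds E-cadherin on epithelial cells. Selectins slow cells in the blood stream by catching sugars carried on proteins such as PSGL-1 (Selplg), and CD44 binds hyaluronan and is a common mark of antigen-experienced T cells.

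As a group the measured genes differed widely between the arrays. Because earlier results of these data were known at the choice, shares beside all genes describe this list and test nothing about adhesion genes. The highest array was at least 2-fold above the lowest in 18 of the 21, against 32.6% of all measured genes. A gene that passes the filter only through the arrays where it is high is more likely to differ. Selp and Nectin3 passed in 1 array, Itga7 in 2 and Itgb8 in 3. Among the 17 that reached the filter in every array, 14 were at least 2-fold apart, against 27.5% of the 8499 genes held to the same condition. The exceptions were Itga4, Itgal and Itgb2, whose highest array exceeded the lowest by 1.86-fold, 1.21-fold and 1.16-fold.

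**Figure D1:**
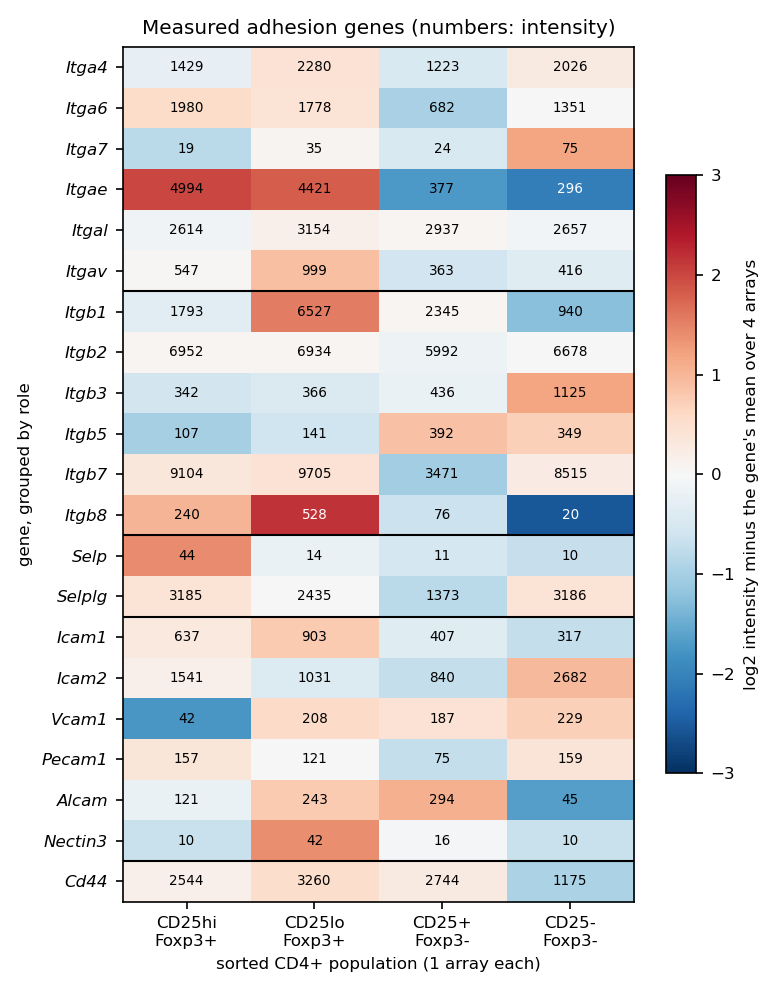
Intensity of the 21 measured adhesion genes (rows, grouped by role) in the 4 sorted populations (columns, 1 array each); the numbers are intensities, with values under the floor shown at the floor, and the colour is the log2 intensity minus the gene's mean over the 4 arrays. Itgae is high in both Foxp3+ columns, Itgb1 and Itgb8 are highest in CD25lo Foxp3+ cells, and Itgb7 and Itga6 are lowest in CD25+ Foxp3- cells.

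The alpha chain Itgae, which makes CD103 with beta 7, had the widest gap of the 21 measured genes between both Foxp3+ and both Foxp3- populations. It read 4994 in CD25hi and 4421 in CD25lo Foxp3+ cells, against 377 and 296 in the CD25+ and CD25- populations without Foxp3. A second probe set gave 3588 and 2849 in the same Foxp3+ populations, against 226 and 182 in the Foxp3- ones. The pairs did not overlap on either probe set, and within each pair the values lay less than 2-fold apart. Against CD25- Foxp3- cells Itgae was 16.9-fold higher in CD25hi and 14.9-fold higher in CD25lo Foxp3+ cells on the first probe set, and 19.7-fold and 15.7-fold on the second.

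The partner chain Itgb7 did not follow it. Its 1 probe set read 9104 in CD25hi Foxp3+, 9705 in CD25lo Foxp3+, 3471 in the CD25+ Foxp3- array and 8515 in CD25- Foxp3- cells. Only the CD25+ Foxp3- array stood apart, 2.45-fold below CD25- Foxp3- cells, while the other arrays lay within 1.14-fold of each other. The Itgae difference between Foxp3+ and CD25- Foxp3- cells was thus seen with beta 7 intensity nearly level.

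Itgb8, the beta chain that pairs with alpha v and binds latent TGF-beta, was also higher in both Foxp3+ populations. It read 240.3 in CD25hi and 528 in CD25lo Foxp3+ cells, against 75.7 and 20.2 in the CD25+ and CD25- populations without Foxp3. All 4 values were at least 2-fold from their neighbours, with CD25lo Foxp3+ highest and CD25- Foxp3-, under the filter intensity, lowest. CD25lo Foxp3+ cells were 26.1-fold and CD25hi Foxp3+ cells 11.9-fold above CD25- Foxp3- cells, folds whose size is uncertain because the lowest value is close to background. The gene has a single probe set, so no second reading was at hand.

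Icam1, the immunoglobulin-type ligand of LFA-1, had a narrower separation. It read 637 in CD25hi and 903 in CD25lo Foxp3+ cells, against 407 and 317 in the CD25+ and CD25- populations without Foxp3. The lower Foxp3+ value was 1.57-fold above the higher Foxp3- value, just past the gap of 1.5-fold that was asked of a pair against a pair. The 2.01-fold difference between CD25hi Foxp3+ and CD25- Foxp3- cells lay at the 2-fold limit and was under it after quantile normalization, after scaling to a common median, and with 16 added to each intensity in place of the floor.

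Itgb5, another partner of alpha v, ran the other way. Its brightest probe set read 107 in CD25hi and 141 in CD25lo Foxp3+ cells, against 392 and 349 in the CD25+ and CD25- populations without Foxp3, a gap of 2.49-fold. That probe set carries the x suffix of sets that may bind related transcripts. The other set past the filter, with no such suffix, read 20.6 and 19.2 in the Foxp3+ populations, against 32.6 and 27.5 in the Foxp3- ones, less than the 1.5-fold gap, so the call does not stand on it. The remaining probe sets, under the filter, read 6.37, 6.35, 24.4 and 5.33, and 10.9, 12.2, 26.3 and 12.1, in the order of the populations. On these only the CD25+ Foxp3- array was raised.

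The same split was seen in markers of other cells. Of 9 measured NK and CD8 T cell markers, 7 were lower in both Foxp3+ arrays by the 1.5-fold gap. Of all measured genes 1.93% passed as lower by that gap. Over the 11 with a probe set the summed intensity was 686 and 682 with Foxp3, against 2182 and 2456 without it, and none was under the floor in all arrays. Among measured red cell markers 4 of 5 were lower by the same gap. The sums over the 6 with a probe set were 206 and 491 against 1709 and 992. Hba-a1, a globin gene, was under the floor in every array. Their part in the Itgb5 difference was not tested.

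By the rule of a 1.5-fold gap between pairs, 3 of the 21 measured genes were higher in both Foxp3+ arrays (Itgae, Itgb8 and Icam1) and 1 was lower (Itgb5), where 2.80% of all measured genes passed as higher and 1.93% as lower. The pairing by the CD25 labels, CD25hi Foxp3+ and CD25+ Foxp3- against CD25lo Foxp3+ and CD25- Foxp3-, separated none of the 21, where 1.10% of all genes passed as higher and 0.187% as lower. The remaining pairing, which follows neither marker, separated Alcam and Nectin3, both lower in CD25hi Foxp3+ and CD25- Foxp3- cells, where 1.45% of all genes passed as higher and 1.60% as lower. With the mean over all measured probe sets of a gene, Itgb1 and Nectin3 passed there and Alcam did not, and Nectin3 did not pass when every array had to reach the filter.

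**Figure D2:**
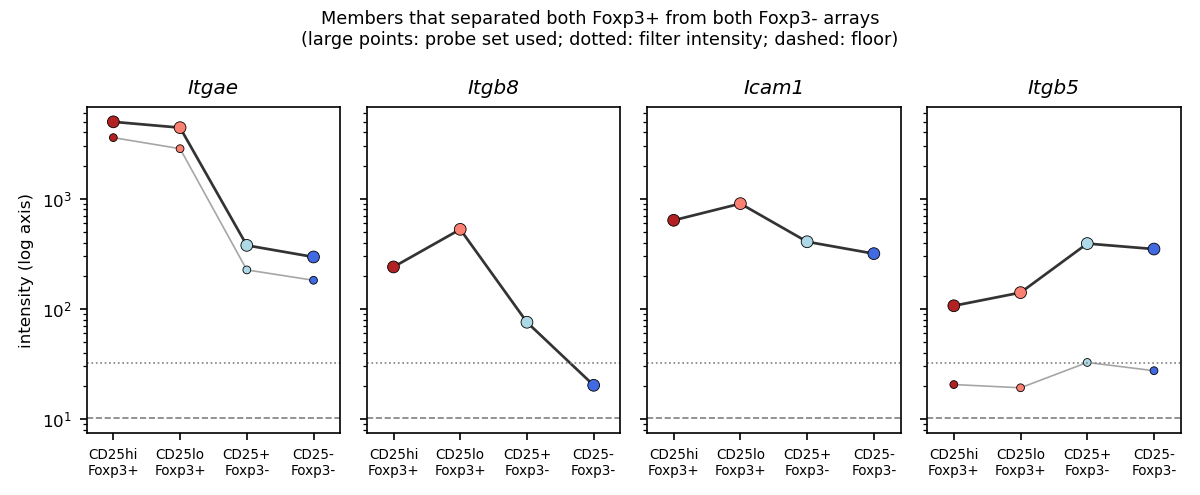
Intensity (log axis) of the 4 genes that separated both Foxp3+ from both Foxp3- arrays, with 1 line for each probe set past the filter and 1 array for each population. Both Itgae probe sets drop between CD25lo Foxp3+ and CD25+ Foxp3- cells, and the second Itgb5 probe set lies near the filter intensity of 32.5, drawn as a dotted line above the dashed floor of 10.1.

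Promoter sequence of RefSeq, on build GRCm38.p6, was at hand for 3 of these 4 genes and is shown for Icam1 and Itgb8 because both genes read higher in the Foxp3+ arrays. Each run is the 250 bases before the transcript start, on the strand of the gene. Icam1 lies on chromosome 9 (chr9:21015690-21015939, plus strand) and Itgb8 on chromosome 12 (chr12:119238277-119238526, minus strand). Capitals mark matches to the searched motifs.
Icam1: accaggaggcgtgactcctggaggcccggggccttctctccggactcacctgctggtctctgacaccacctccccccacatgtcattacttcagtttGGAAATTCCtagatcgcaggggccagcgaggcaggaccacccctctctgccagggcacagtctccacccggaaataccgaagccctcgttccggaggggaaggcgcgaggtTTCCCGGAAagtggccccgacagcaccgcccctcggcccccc
Itgb8: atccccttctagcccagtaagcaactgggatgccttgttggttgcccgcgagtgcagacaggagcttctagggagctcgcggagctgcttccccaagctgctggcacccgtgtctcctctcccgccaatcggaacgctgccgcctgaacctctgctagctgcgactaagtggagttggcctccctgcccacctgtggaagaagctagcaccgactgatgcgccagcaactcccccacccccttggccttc
The letters searched, on both strands, were GGAANTTCC (NF-kappaB-like), TGTTTAC (forkhead-like) and TTCNNNGAA (STAT-like). Icam1 had 1 match to the first, 153 to 145 bases before the start, and 1 to the last, 42 to 34 bases before it, with no overlap between them. Itgb8 and Itgb5 had none. Of 32851 promoters of the same length in the table, 0.813% held the first motif, 3.17% the forkhead-like and 7.02% the STAT-like. Of the 22 promoters of 20 of the 31 genes, Icam1 alone held the first or the last and none held the forkhead-like one. A match describes these letters only.

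The other alpha chains were less tied to Foxp3. Itga6, part of laminin receptors, read 1980.2 in CD25hi Foxp3+, 1778 in CD25lo Foxp3+, 682 in the CD25+ Foxp3- array and 1351 in CD25- Foxp3- cells. The CD25+ Foxp3- array was the low one, with CD25hi Foxp3+ cells 2.90-fold and CD25lo Foxp3+ cells 2.61-fold above it. A second probe set gave 1152, 599, 198 and 696 in the same order, with CD25+ Foxp3- again lowest, 3.52-fold below CD25- Foxp3- cells there and 1.98-fold below them on the first.

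Itgav encodes alpha v, which pairs with beta chains such as beta 1, beta 3, beta 5 and beta 8. The gene read highest in CD25lo Foxp3+ cells at 999. It read 547 in CD25hi Foxp3+, 363 in the CD25+ Foxp3- array and 416 in CD25- Foxp3- cells. CD25lo Foxp3+ cells were 2.76-fold above CD25+ Foxp3- and 2.40-fold above CD25- Foxp3- cells, and the remaining arrays lay within 1.51-fold of each other. On a dimmer probe set the values were 35.8, 83.0, 31.9 and 19.8 in the order of the populations, with CD25lo Foxp3+ again highest.

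Itga4, the alpha 4 chain of VLA-4 and of the gut homing receptor, gave readings that depended on the probe set. The brightest read 1429 in CD25hi Foxp3+, 2279.9 in CD25lo Foxp3+, 1223 in the CD25+ Foxp3- array and 2026 in CD25- Foxp3- cells, with no difference of 2-fold. The next brightest read 546, 871, 832 and 369 in that order, and another read 53.7, 97.1, 76.6 and 27.3. On these CD25+ Foxp3- cells lay 2.26-fold and 2.80-fold above CD25- Foxp3- cells, whereas on the brightest they lay 1.66-fold below. CD25lo Foxp3+ cells were highest on 4 of the 5 probe sets past the filter, the exception being the dimmest.

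Itgal and Itgb2, the chains of LFA-1, were close to level on their brightest probe sets. Itgal read 2614 in CD25hi Foxp3+, 3154 in CD25lo Foxp3+, 2937 in the CD25+ Foxp3- array and 2657 in CD25- Foxp3- cells. Itgb2 read 6952, 6934, 5992 and 6678 in the same order. A dim second Itgal probe set, at 149, 229.6, 261 and 98.0, put CD25lo Foxp3+ and CD25+ Foxp3- cells 2.34-fold and 2.67-fold above CD25- Foxp3- cells.

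Itga7, a laminin receptor chain known from muscle, was dim and reached the filter in CD25lo Foxp3+ and CD25- Foxp3- cells only. It read 19.1 in CD25hi Foxp3+, 35.4 in CD25lo Foxp3+, 24.2 in the CD25+ Foxp3- array and 75.2 in CD25- Foxp3- cells, the last 2.12-fold above its nearest neighbour.

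A set of 8 alpha chains stayed under the filter in every array, namely Itga1, Itga2, Itga2b, Itga3, Itga5, Itga9, Itgam and Itgax, as did the beta chains Itgb4 and Itgb6. No value among their 19 probe sets exceeded 25.1, which was reached by Itga9 in CD25- Foxp3- cells. Itgam, which encodes the CD11b used in the depletion, read at most 9.38, under the floor, and Itgax, the CD11c chain of dendritic cells, at most 11.04. Itga2b, the platelet chain, read at most 14.3, and Itga5, the fibronectin receptor chain, at most 13.6 on any of its 4 probe sets. A gene under the filter was not counted as measured here, which does not show that it was absent.

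Among the beta chains, Itgb1, the common partner of many alpha chains and a mark of memory T cells, had its peak in CD25lo Foxp3+ cells. It read 1793 in CD25hi Foxp3+, 6527 in CD25lo Foxp3+, 2345 in the CD25+ Foxp3- array and 939.8 in CD25- Foxp3- cells. CD25lo Foxp3+ cells were 2.78-fold above CD25+ Foxp3- and 6.94-fold above CD25- Foxp3- cells, and CD25hi Foxp3+ cells were 3.64-fold below CD25lo Foxp3+ cells. A second probe set read 559, 3025, 1126 and 249 in that order, with the same ranking and a 12.2-fold difference between CD25lo Foxp3+ and CD25- Foxp3- cells. On the dimmest past the filter, at 23.4, 73.9, 35.1 and 27.0, CD25lo Foxp3+ cells were highest too and CD25hi Foxp3+ cells lowest.

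Itgb3, known as the platelet beta chain and as a partner of alpha v in the vitronectin receptor, was highest in CD25- Foxp3- cells. It read 342 in CD25hi Foxp3+, 366 in CD25lo Foxp3+, 436 in the CD25+ Foxp3- array and 1125 in CD25- Foxp3- cells. The CD25- Foxp3- array stood 2.58-fold above the next, and the others lay within 1.27-fold of each other. A second Itgb3 probe set, under the filter, read 14.9, 14.2, 23.4 and 29.1 in the same order. On it CD25- Foxp3- cells were again highest, but less than 2-fold above CD25+ Foxp3- cells. Platelet markers did not move with Itgb3. None of the 9 with a probe set exceeded an intensity of 11.6, and 7 of them were under the floor in all arrays. Their summed intensity was 51.8, 59.1, 56.9 and 57.5 in the order of the populations. The marker sums of 3 other kinds of cell also read highest in the same array as Itgb3, each less than 2-fold above the next array. The myeloid and dendritic markers summed to 306, 630.3, 935 and 1046 in that order, and the NK and CD8 T cell markers to 686, 682, 2182 and 2456. The B cell markers, of which 2 of 7 passed the filter and 3 were under the floor in all arrays, summed to 148, 176, 161 and 258, with the B cell surface gene Ms4a1 at 15.9, 24.7, 66.7 and 144.8. Singly, Ms4a1, Klrd1, Gzma, Prf1, Mpo and S100a8 stood over 2-fold above the next array in CD25- Foxp3- cells. Klrd1 read 31.7, 40.2, 192 and 422, and Mpo 14.4, 40.9, 35.7 and 89.8. Other markers peaked elsewhere. Nkg7, at 226, 265, 808 and 572, and Fcer1g, at 15.5, 21.9, 294 and 21.5, were highest in CD25+ Foxp3- cells. Cd79b, at 97.2, 118, 58.4 and 69.2, was highest in CD25lo Foxp3+ cells. The part of these kinds of cell in the Itgb3 difference was not tested.

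Heterodimers are made when both chains are present, so the chains were set side by side within each comparison, with no level of a probe set compared with that of another. For 10 known pairs of measured chains in 6 comparisons, both chains were past 2-fold in the same direction in 7 of 60 cases, and in opposite directions in 5. The cases share chains and arrays, and no count for other pairs of genes was made, so these numbers are descriptive. The 5 were Itgav with Itgb5 in CD25lo Foxp3+ cells against each Foxp3- population, and 3 against CD25- Foxp3- cells. Those 3 were Itgav with Itgb3 in CD25lo Foxp3+ cells, and Itga7 with Itgb1 in CD25lo Foxp3+ and in CD25+ Foxp3- cells. The 7 were Itgae with Itgb7 in both Foxp3+ populations against CD25+ Foxp3- cells, Itga6 with Itgb1 in CD25lo Foxp3+ against CD25+ Foxp3- cells, and Itgav with Itgb1 and with Itgb8 in CD25lo Foxp3+ cells against each Foxp3- population. Alpha v was thus higher in CD25lo Foxp3+ cells together with beta 1 and beta 8, while beta 3 (Itgb3) and beta 5 (Itgb5) were 3.07-fold and 2.49-fold lower there than in CD25- Foxp3- cells. The Itgb5 reading is that of its brightest probe set, which carries the x suffix.

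Selp, which encodes P-selectin of platelets and endothelium, was dim and passed the filter in CD25hi Foxp3+ cells alone. It read 43.9 in CD25hi Foxp3+, 14.2 in CD25lo Foxp3+, 11.2 in the CD25+ Foxp3- array and 9.67 in CD25- Foxp3- cells, so CD25hi Foxp3+ cells were 3.10-fold above CD25lo Foxp3+ and at least 4.34-fold above CD25- Foxp3- cells. A second probe set, under the filter, also read highest in CD25hi Foxp3+ cells, at 21.9 against 13.96, 9.75 and 11.1 in the others. The platelet marker sum was 51.8 in CD25hi Foxp3+ cells and 59.1, 56.9 and 57.5 in the others. Of 11 endothelial and stromal markers with a probe set 1 passed the filter, Pdgfrb, in CD25+ Foxp3- cells. Summed, these 11 read 85.7, 84.6, 153 and 83.7 in the order of the populations, 7 were under the floor in all arrays, and the endothelial cadherin Cdh5 read at most 9.35. The part of platelets or endothelial cells in the Selp difference was not tested.

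Selplg, the P-selectin ligand of leukocytes, read 3185 in CD25hi Foxp3+, 2435 in CD25lo Foxp3+, 1373 in the CD25+ Foxp3- array and 3186 in CD25- Foxp3- cells. CD25+ Foxp3- cells were low, 2.32-fold below CD25- Foxp3- cells, and the other arrays lay within 1.31-fold. The enzymes that dress such proteins with selectin-binding sugars did not move as 1 group. Of 14 measured, 3 stood at least 2-fold above CD25- Foxp3- cells in the CD25+ Foxp3- array and no enzyme stood below, beside 12.1% of all measured genes higher and 6.43% lower. These were the branching enzyme Gcnt1 with 155 against 22.4, and the fucosyltransferases Fut4 with 96.6 against 14.03 and Fut7 with 29.1 against 12.6. Both of these Fut7 values lay under the filter intensity. Gcnt1, at 64.1 and 101.9, and Fut7, at 33.8 and 39.9, were also past 2-fold above CD25- Foxp3- cells in CD25hi and CD25lo Foxp3+ cells. Fut4, at 15.2 and 14.7 there, was raised in the CD25+ Foxp3- array alone. In both Foxp3+ populations the sialyltransferase St3gal6 read low, at 28.5 in CD25hi and 33.1 in CD25lo cells, beside 179.9 and 242 in the CD25+ and CD25- populations without Foxp3. The NK and CD8 T cell markers had the same split, with sums of 686 and 682 beside 2182 and 2456, and their part in the St3gal6 difference was not tested.

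Cd44 was low in CD25- Foxp3- cells and near level in the rest. It read 2544 in CD25hi Foxp3+, 3260.4 in CD25lo Foxp3+, 2744 in the CD25+ Foxp3- array and 1175 in CD25- Foxp3- cells, the first 3 at least 2.17-fold above the last and within 1.28-fold of each other. A pair of further probe sets had the same low array, at 1341, 2289, 2612 and 456 on the brighter and 157, 276, 187 and 58.5 on the dimmer.

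Alcam, which binds CD6 on T cells, was likewise lowest in CD25- Foxp3- cells. The brightest of its 5 probe sets read 121 in CD25hi Foxp3+, 243 in CD25lo Foxp3+, 294 in the CD25+ Foxp3- array and 44.6 in CD25- Foxp3- cells. All 5 put each other population at least 2.11-fold above CD25- Foxp3- cells. The order among the high populations was not shared: on the other 4 probe sets CD25lo Foxp3+ cells were highest, and CD25hi Foxp3+ cells lay between 1.08-fold above and 1.14-fold below CD25+ Foxp3- cells, against 2.43-fold below on the brightest.

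**Figure D3:**
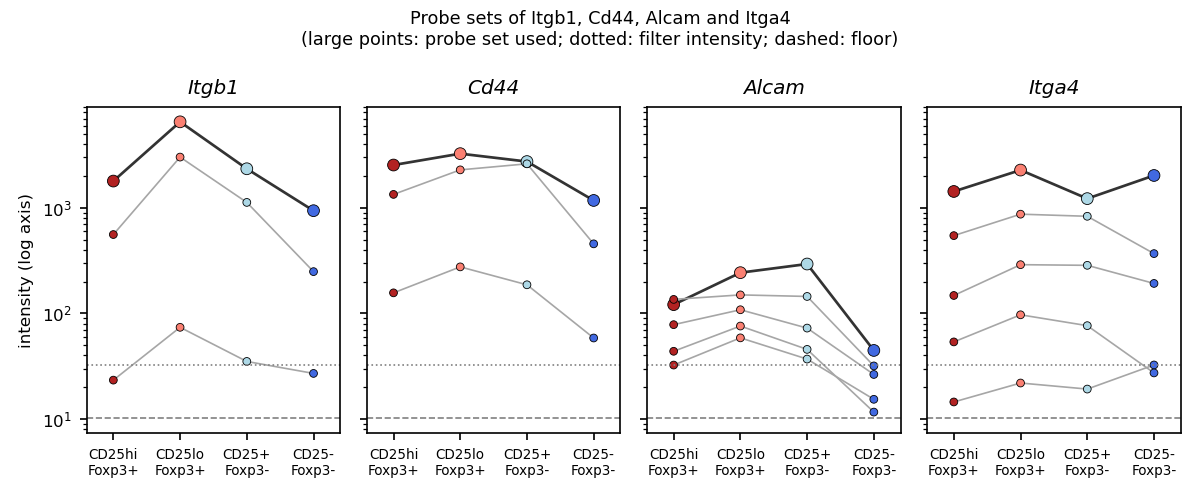
Intensity (log axis) of each probe set past the filter for Itgb1, Cd44, Alcam and Itga4 in the 4 populations, 1 array each, with the brightest probe set drawn darker. CD25lo Foxp3+ cells are highest on all 3 Itgb1 probe sets and CD25- Foxp3- cells lowest on all Cd44 and Alcam probe sets, while the Itga4 probe sets differ in where CD25- Foxp3- cells stand.

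Icam2 and Pecam1, adhesion molecules of resting leukocytes and endothelium, read low in CD25+ Foxp3- cells. Icam2 read 1541 in CD25hi Foxp3+, 1031 in CD25lo Foxp3+, 840.4 in the CD25+ Foxp3- array and 2682 in CD25- Foxp3- cells, with CD25lo Foxp3+ 2.60-fold and CD25+ Foxp3- 3.19-fold below CD25- Foxp3- cells. Pecam1 read 157, 121, 74.9 and 159 in the same order, where only CD25+ Foxp3- cells were over 2-fold below another array. The endothelial markers given with Selp were at or near the floor in the arrays where both read high. The part of such cells in the Icam2 and Pecam1 differences was not tested.

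Vcam1, the ligand of alpha 4 beta 1 integrin, was low in CD25hi Foxp3+ cells alone. It read 41.6 in CD25hi Foxp3+, 208 in CD25lo Foxp3+, 187 in the CD25+ Foxp3- array and 229 in CD25- Foxp3- cells. CD25hi Foxp3+ cells were 5.49-fold below CD25- Foxp3- cells, and the higher arrays lay within 1.22-fold of each other. A dimmer probe set at 30.4, 47.9, 36.8 and 46.4 had the same lowest array and no difference of 2-fold. Myeloid and dendritic markers, 10 of 16 of which passed the filter, were also lowest there, with summed intensities of 306 in CD25hi Foxp3+, 630.3 in CD25lo Foxp3+, 935 in the CD25+ Foxp3- array and 1046 in CD25- Foxp3- cells. Csf1r, the receptor of macrophage growth factor, read 57.8, 212, 147 and 305. Lyz2, the lysozyme of myeloid cells, read 27.8, 113, 70.6 and 147, and Cd14 was under the floor in all arrays. Not all of these markers had that order. S100a9, at 46.1, 34.3, 82.7 and 144, was lowest in CD25lo Foxp3+ cells. Fcer1g, at 15.5, 21.9, 294 and 21.5, was raised in CD25+ Foxp3- cells alone. Their part in the Vcam1 difference was not tested.

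Nectin3, a nectin of cell junctions, read 42.3 in the CD25lo Foxp3+ array and 15.8 in the CD25+ Foxp3- array, and was under the floor in CD25hi Foxp3+ and CD25- Foxp3- cells, at least 4.18-fold lower. It passed through 1 of its 6 probe sets, and on the other 5 no value exceeded 12.9.

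Set against CD25- Foxp3- cells, which the next 3 counts share, CD25hi Foxp3+ cells had 6 of the 21 genes at least 2-fold higher and 4 lower, where 7.09% of all measured genes passed as higher and 3.74% as lower. Those higher were Itgae, Itgb8, Selp, Alcam, Cd44 and Icam1, and those lower Vcam1, Itga7, Itgb3 and Itgb5. CD25lo Foxp3+ cells had 8 higher and 4 lower, where 9.09% and 6.88% of all genes passed. Higher were Itgb8, Itgae, Itgb1, Alcam, Nectin3, Icam1, Cd44 and Itgav, and lower were Itgb3, Icam2, Itgb5 and Itga7. CD25+ Foxp3- cells had 4 higher, Alcam, Itgb8, Itgb1 and Cd44, and 6 lower, Icam2, Itga7, Itgb3, Itgb7, Selplg and Pecam1, where 12.1% and 6.43% of all genes passed. The median log2 difference of the 21 was 0.06, 0.25 and -0.16 in these comparisons, beside 0.02, -0.05 and -0.01 over all measured genes.

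Within the populations that bear CD25, CD25hi Foxp3+ cells had 7 of the 21 genes at least 2-fold higher than CD25+ Foxp3- cells and 3 lower, where 4.82% of all genes passed as higher and 6.84% as lower. Itgae, Selp, Itgb8, Itga6, Itgb7, Selplg and Pecam1 were higher, and Vcam1, Itgb5 and Alcam lower. CD25lo Foxp3+ cells, whose Il2ra level was nearly that of CD25+ Foxp3- cells, had 8 higher than these and 1 lower, where 5.17% and 9.04% of all genes passed. The 8 were Itgae, Itgb8, Itgb7, Itgb1, Itgav, Nectin3, Itga6 and Icam1, and the 1 was Itgb5. The median log2 difference was 0.69 there, beside -0.01 over all genes. Held to genes past the filter in every array, the members past 2-fold in either direction were 7 of 17 for CD25hi Foxp3+, 9 for CD25lo Foxp3+ and 8 for CD25+ Foxp3- cells against CD25- Foxp3- cells, beside 7.42%, 12.7% and 15.3% of 8499 genes. Against CD25+ Foxp3- cells they were 8 for CD25hi and 7 for CD25lo Foxp3+ cells, beside 8.73% and 11.3%.

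Between the Foxp3+ populations, CD25hi cells had 1 gene at least 2-fold higher than CD25lo cells, Selp, and 5 lower, Vcam1, Nectin3, Itgb1, Itgb8 and Alcam, where 3.21% of all genes passed as higher and 2.50% as lower. The median log2 difference was -0.36, beside 0.05 over all genes. Under the every-array condition 3 of 17 were lower and none was higher, where 4.21% of 8499 genes passed. CD25lo Foxp3+ cells read highest of the 4 arrays for 9 of the 21 genes and lowest for none, beside 21.5% and 27.4% of all measured genes. Itgb1, Itgb8 and Alcam were at least 2-fold lower in CD25hi than in CD25lo Foxp3+ cells and at least 2-fold above CD25- cells in the CD25+ array among Foxp3- cells, and 1.36% of all genes had such differences in opposite directions.

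**Figure D4:**
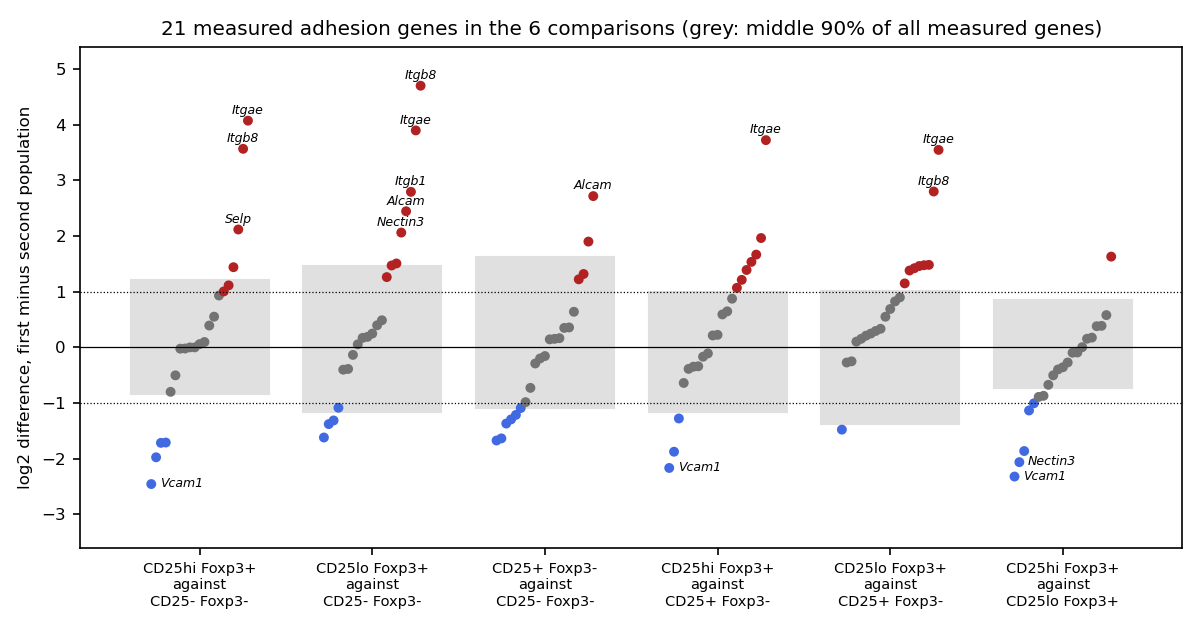
Log2 difference of the 21 measured adhesion genes, 1 point each, in the 6 comparisons of 2 arrays, first minus second population; grey boxes span the middle 90% of all measured genes, dotted lines mark 2-fold, and red and blue points are 2-fold or more higher and lower. Itgae and Itgb8 lie highest in the comparisons of CD25lo Foxp3+ with each Foxp3- population, and Vcam1 lies lowest in those of CD25hi Foxp3+ with each other population.

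Genes that connect integrins to the cell's interior, such as talin and Rap1 partners, were read beside the receptors. Of 37 measured activation and linkage genes, relative to CD25- Foxp3- cells 3 were at least 2-fold lower and none higher in CD25hi Foxp3+ cells, 5 lower and 1 higher in CD25lo Foxp3+ cells, and 6 lower and 1 higher in CD25+ Foxp3- cells. Over all measured genes the shares lower and higher were 3.74% and 7.09% for CD25hi Foxp3+, 6.88% and 9.09% for CD25lo Foxp3+, and 6.43% and 12.1% for CD25+ Foxp3- cells. Rasgrp2, an exchange factor that switches on Rap1, read 222, 221 and 196 in CD25hi Foxp3+, CD25lo Foxp3+ and CD25+ Foxp3- cells, against 863 in CD25- Foxp3- cells. Actn1, an actin crosslinker at adhesion sites, read 1075, 895 and 1216 against 2995. Skap2, an adaptor in integrin activation, was the 1 higher in CD25lo Foxp3+ cells, at 1238 against 542. None of the 37 passed the 1.5-fold gap between both Foxp3+ and both Foxp3- arrays. Of all measured genes 2.80% passed it as higher and 1.93% as lower.

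Among 18 other measured T cell adhesion receptors, Epcam and Cd99l2 were higher and Crtam was lower in both Foxp3+ arrays by the 1.5-fold gap, which 2.80% of all measured genes passed as higher and 1.93% as lower. Slamf1 and Cd2 also read higher in both, with gaps of 1.48-fold and 1.46-fold, just under it. Epcam, a homophilic adhesion molecule of epithelia, read 321 in CD25hi and 292 in CD25lo Foxp3+ cells, beside 56.7 and 38.2 in the CD25+ and CD25- populations without Foxp3. Crtam, which binds a nectin-like molecule, read 37.1 and 32.9 against 324 and 248, the split of the NK and CD8 T cell markers, whose sums were 686 and 682 against 2182 and 2456 and whose part in it was not tested. Of 9 measured tetraspanins, membrane proteins that hold integrins in clusters, Tspan32 was higher in both Foxp3+ arrays, with 1481 and 1476 beside 843 and 926, and no tetraspanin was lower by that gap. Only 3 of 27 ligand and matrix genes with a probe set passed the filter. The laminin chain Lamc1 read 164 and 118 with Foxp3 and 21.0 and 12.6 without it, and passed the filter in the Foxp3+ arrays alone. Tgfb1, at 176 and 172 with Foxp3 and 250 and 79.2 without it, was highest in CD25+ Foxp3- cells. Egfl7 read 38.5 and 50.8 with Foxp3 and 35.5 and 46.8 without it.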

How the data were processed

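Expression of sorted mouse CD4+ T cells was measured on 4 arrays, 1 for each population, and groups were taken from the sample titles. Each deposited value is the linear intensity of a probe set, judged by its range; the authors' summary, background and normalization steps are not stated in the labels. Per the labels, RNA was amplified in 2 cycles. Column medians lay within 10% of each other, so the scale was kept and log2 was taken after the floor. The platform annotation named the genes: 34945 had 1 gene, 932 had several, 9160 had none listed, and 64 controls were left out. Entrez identifiers matched 34741 of them to the RefSeq gene table of GRCm38.p6, which changed no symbol. A gene was read from its measured probe set with the highest mean log2 intensity. All 31 genes are named, and of each further list its counts and up to 4 genes. The genes and the lists were chosen with earlier results of these data known. No test was possible with 1 array a group. Python 3.11.15, numpy 2.4.6, pandas 2.3.3 and matplotlib 3.10.9 were used.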

Additional observations from a re-analysis of the deposited data

Results flagged for a closer look

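Itgb1, Itgb8 and Alcam were singled out because the difference between the more and the less CD25-bearing population ran one way among Foxp3+ cells and the other way among Foxp3- cells. Among Foxp3+ cells the ratio of CD25hi to CD25lo was 0.275 for Itgb1, 0.456 for Itgb8 and 0.498 for Alcam. Among Foxp3- cells the ratio of CD25+ to CD25- was 2.50, 3.74 and 6.59 for the same genes. Of all measured genes, 1.36% had differences of at least 2-fold in opposite directions. With 1 array a population the difference between these ratios was not tested. Leaving out Alcam's choice of brightest probe set, its ratio among Foxp3+ cells lay between 0.553 and 0.906 on the other 4 probe sets.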

How the results depend on the processing

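No paired analysis was possible because each population has 1 array, so the replicate number 1 and the pool of mice are common to all 4 and a block would leave nothing to compare. No result past its threshold changed direction. Of the member folds recomputed under the alternatives, 1180 stayed on their side of 2-fold, 16 dropped under it and 4 passed it. With no filter, the filter at the 75th percentile and the filter in every array, all 126, 108 and 102 stayed. These settings can change a fold only through the probe set read. Members that a setting left out were not counted, as Selp, Nectin3, Itga7 and Itgb8 when every array had to reach the filter. Of the counts of members, 92 stayed within 1.5 times and 16 did not. The exceptions follow. At 3-fold the counts were 6 for CD25lo Foxp3+ and 4 for CD25+ Foxp3- against CD25- Foxp3- cells, and 5 for CD25hi and 2 for CD25lo Foxp3+ against CD25+ Foxp3- cells. With the filter asked of every array, 3 were counted between CD25hi and CD25lo Foxp3+ cells. At a gap of 1.2-fold the pairings by Foxp3, by CD25 and by neither marker separated 7, 2 and 6 members. The CD25 pairing separated 1 under quantile normalization and under scaling to a common median. The pairing by neither separated 1 with a gap of 2-fold, with the floor at the 50th percentile, with the filter at the 75th percentile or in every array, without probe sets of shared suffix, and with 16 added to each intensity. With the mean over all measured probe sets of a gene, that pairing again separated 2 members, but Itgb1 in place of Alcam, and the Alcam differences of CD25hi Foxp3+ cells from CD25lo Foxp3+ and from CD25+ Foxp3- cells dropped under 2-fold. Itgb5 was not separated by Foxp3 without those probe sets; the alternative leaves it its dim probe set only. The cause of the other changes was not tested. Values at or near the floor of 10.1, those of Selp, Nectin3 and Itgb8 in CD25- Foxp3- cells, limit the size of their folds.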
